A study of Mus musculus with 24 samples.

Results

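The cell division program was examined through 37 genes of DNA replication, nucleotide supply, cell cycle control, the checkpoints and mitosis in splenic B cell subsets of NOD and B6 mice. The genes were taken from a list of 38 symbols, and every probe set annotated to a single gene of that list was read, which gave 87 of the 45101 probe sets of the array. Ccnb1 had no such probe set and is not analysed here. A further 2 probe sets that name Tyms or Foxm1 together with other genes were left out. Of the 37 genes, 17 are placed here with the G1/S phase and 20 with G2/M by their textbook roles.

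The arrays come from female mice of 7 weeks, of the inbred strains C57BL/6/J (B6) and NOD/ShiLtJ (NOD), a strain that develops autoimmune diabetes spontaneously. None of the groups carries a transgene or received a treatment per the labels. In each experiment the spleens of 8 mice of 1 strain were pooled, T cells and CD11b-bearing cells were depleted through CD3ε and CD11b, and the remaining B cells were stained for CD93, CD23, CD24, CD21/35, B220 and IgM and sorted into the subsets named T1, T2FO, T3, FO, T2MZ and MZ. T1, T2FO, T3 and T2MZ are names of transitional stages, FO stands for follicular and MZ for marginal zone B cells. The experiment was done in duplicate, so 24 arrays in 12 groups of 2 trace back to 4 pools, 2 per strain. Every value below is a log2 value that the authors centred on the probe set's median over the 24 arrays, so it tells how far an array lies above or below the middle array and gives no expression level. With 2 arrays in a group, the precision of each value is low.

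Dividing cells pass through G1, S, G2 and M phases, and many of their transcripts are made in waves. E2F transcription factors drive the G1/S wave, which supplies replication proteins and nucleotides, and the B-Myb and FoxM1 factors acting with the MuvB complex drive the G2/M wave of mitotic kinases, checkpoint proteins and spindle motors. Mature follicular and marginal zone B cells are mostly resting until antigen or T cell help drives them into cycle, whereas germinal centre B cells and plasmablasts divide. In a sorted population a higher value may come from more dividing cells or from more transcript per cell, and these cannot be told apart here.

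The promoters of 5 genes are shown as examples of both waves, which differ in the elements known from their promoters, the CHR (TTTGAA) and CCAAT of G2/M genes and the E2F site of G1/S genes. Rrm2 and Chek1 were the G1/S members with the largest range of group means that have an entry in the RefSeq promoter table of GRCm38.p6, and Mki67 and Nusap1 the G2/M members. Cdk1 was added after the values were seen, since it was called in the same comparisons as Mki67. Each run gives 250 bases before and 50 after the gene's start, 5′ to 3′ on the gene's own strand, and capitals mark matches on either strand to TTTGAA or to CCAAT or to 1 of the 4 E2F words TTTCCCGC, TTTGGCGC, TTTCGCGC and TTTGCCGC. The windows are chr12:24708004-24708303 on the plus strand for Rrm2, chr9:36726609-36726908 on the minus strand for Chek1, chr7:135716330-135716629 on the minus strand for Mki67, chr2:119618048-119618347 on the plus strand for Nusap1 and chr10:69352863-69353162 on the minus strand for Cdk1.
Rrm2: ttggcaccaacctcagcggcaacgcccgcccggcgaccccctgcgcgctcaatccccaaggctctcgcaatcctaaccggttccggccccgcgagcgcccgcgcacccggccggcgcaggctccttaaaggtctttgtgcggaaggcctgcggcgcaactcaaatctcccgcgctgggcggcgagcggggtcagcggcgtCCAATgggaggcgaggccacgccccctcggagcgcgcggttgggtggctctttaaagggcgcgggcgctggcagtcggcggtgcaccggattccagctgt
Chek1: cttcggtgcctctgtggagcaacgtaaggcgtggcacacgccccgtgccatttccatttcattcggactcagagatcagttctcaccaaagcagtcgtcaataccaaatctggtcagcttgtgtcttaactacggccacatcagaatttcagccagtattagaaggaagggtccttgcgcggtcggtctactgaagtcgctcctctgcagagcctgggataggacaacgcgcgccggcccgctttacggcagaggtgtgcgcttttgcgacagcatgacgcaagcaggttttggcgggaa
Mki67: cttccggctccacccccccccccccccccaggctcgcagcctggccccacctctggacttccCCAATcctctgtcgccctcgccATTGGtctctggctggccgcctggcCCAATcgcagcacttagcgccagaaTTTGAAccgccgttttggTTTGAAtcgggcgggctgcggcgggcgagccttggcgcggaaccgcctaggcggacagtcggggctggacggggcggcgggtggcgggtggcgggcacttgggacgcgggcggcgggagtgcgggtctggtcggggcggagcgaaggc
Nusap1: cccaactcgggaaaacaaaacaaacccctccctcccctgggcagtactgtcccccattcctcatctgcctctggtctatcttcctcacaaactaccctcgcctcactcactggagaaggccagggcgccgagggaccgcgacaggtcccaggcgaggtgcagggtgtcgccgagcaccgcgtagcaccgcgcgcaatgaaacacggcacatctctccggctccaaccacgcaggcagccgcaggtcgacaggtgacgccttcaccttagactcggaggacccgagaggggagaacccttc
Cdk1: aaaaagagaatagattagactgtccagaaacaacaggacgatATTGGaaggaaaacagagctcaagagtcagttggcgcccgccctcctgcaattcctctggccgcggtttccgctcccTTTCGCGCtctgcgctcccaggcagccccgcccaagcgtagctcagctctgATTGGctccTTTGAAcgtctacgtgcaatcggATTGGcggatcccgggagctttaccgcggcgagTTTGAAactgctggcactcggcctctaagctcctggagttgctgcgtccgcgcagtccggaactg
Mki67 and Cdk1 each hold 2 matches to TTTGAA and 3 to CCAAT in the window, and Cdk1 also holds 1 match to TTTCGCGC. The TTTGAA matches begin 116 and 98 bases before the start of Mki67, and 71 and 15 bases before that of Cdk1. Rrm2 holds 1 CCAAT, which begins 50 bases before the start, and no match to the other motifs. No match lies in the windows of Chek1 and Nusap1, but forms close to the searched words were not counted. The end of the Chek1 window holds TTTGGCGG, which is 1 letter from the E2F word TTTGGCGC. A match is a description of the letters and not a shown binding site.

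Over the 30 member genes with an entry in the table of 27025 genes, the 2 waves differed in these letters. TTTGAA stood in 12 of 16 G2/M members (75%) and in 1 of 14 G1/S members (7.14%, Mcm2), beside 18.1% of all promoters of the table. CCAAT stood in 87.5% of the G2/M and 57.1% of the G1/S members, beside 37.9% of all. A match to at least 1 of the 4 E2F words stood in 28.6% of the G1/S members (Mcm3, Mcm5, Mcm6 and Mcm7), in 6.25% of the G2/M members (Cdk1) and in 2.32% of all. TTTGAA together with CCAAT stood in 75% of the G2/M members, in 7.14% of the G1/S members and in 7.12% of all.

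Several facts of the arrays touch the results. The transcripts of the sort markers go against some of the NOD labels: Cd93, a marker of transitional cells, was 3.14 and 2.98 on the B6 T1 arrays but -2.04 and -2.14 on the NOD arrays labelled T1. Cr2, which encodes CD21/35 and is high on marginal zone cells, was -1.83 and -1.62 in B6 T1 and 1.24 and 1.16 on the NOD arrays labelled T1, and Cr2 read 0.04 and 0.01 on those labelled T2MZ, with 0.58 and 0.59 in B6 T2MZ. NOD groups are therefore named below as the arrays labelled so, and a difference within a label may compare different cells. Under the label FO the strains overlapped for Cr2, Cd93 and Fcer2a on their most variable probe sets, but not for Cd24a and Ighm. Cd93 read -0.59 and -0.36 on the NOD arrays labelled FO and 0.17 and -0.56 in B6 FO. Cr2 read 0.04 and -0.15 on the former and -0.01 and 0.11 on the latter. The 5′ actin control lay between -4.04 and -3.27 on 6 B6 arrays (replicate 2 of T1, T2FO, T3 and T2MZ and replicate 1 of FO and MZ), between -1.36 and 0.47 on the other 6 and between -0.54 and 0.79 on the NOD arrays. The replicates of B6 had a root mean square standard deviation of 0.448 and those of NOD of 0.261 over all probe sets, and of 0.902 and 0.495 over the member genes.

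Among markers of other cells, the germinal centre list (6 genes measured) had medians of 1.60 and 1.03 and the myeloid list (8 genes) 1.18 and 0.99 on the NOD arrays labelled FO, with S1pr2, Rgs13 and Mybl1, and C1qa, Csf1r, Cd68 and Adgre1, above 1 on both arrays. Each list was divided there. Bcl6 and Fas read between -0.01 and 0.51, and Itgam, Lyz2, S100a8 and S100a9 between -0.17 and 0.48. The plasma cell list (8 genes) had medians of 1.59 and 2.07 on the NOD arrays labelled T2FO, the NK cell list (6 genes) 1.46 on replicate 2 of B6 T2FO and the myeloid list 1.12 on replicate 2 of B6 MZ. The values being centred, whether defining B cell markers are present or absent cannot be read. A member gene with several probe sets is represented by the one that varied most (standard deviation of the 24 values), and all probe sets entered the tests. Shares of all probe sets rest on no such choice. A probe set chosen for its spread may separate arrays more often, so member counts and these shares are not like for like. That holds for the counts of lowest and highest groups, replicate gaps, strains without overlap and the split by the actin control.

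**Figure D1:**
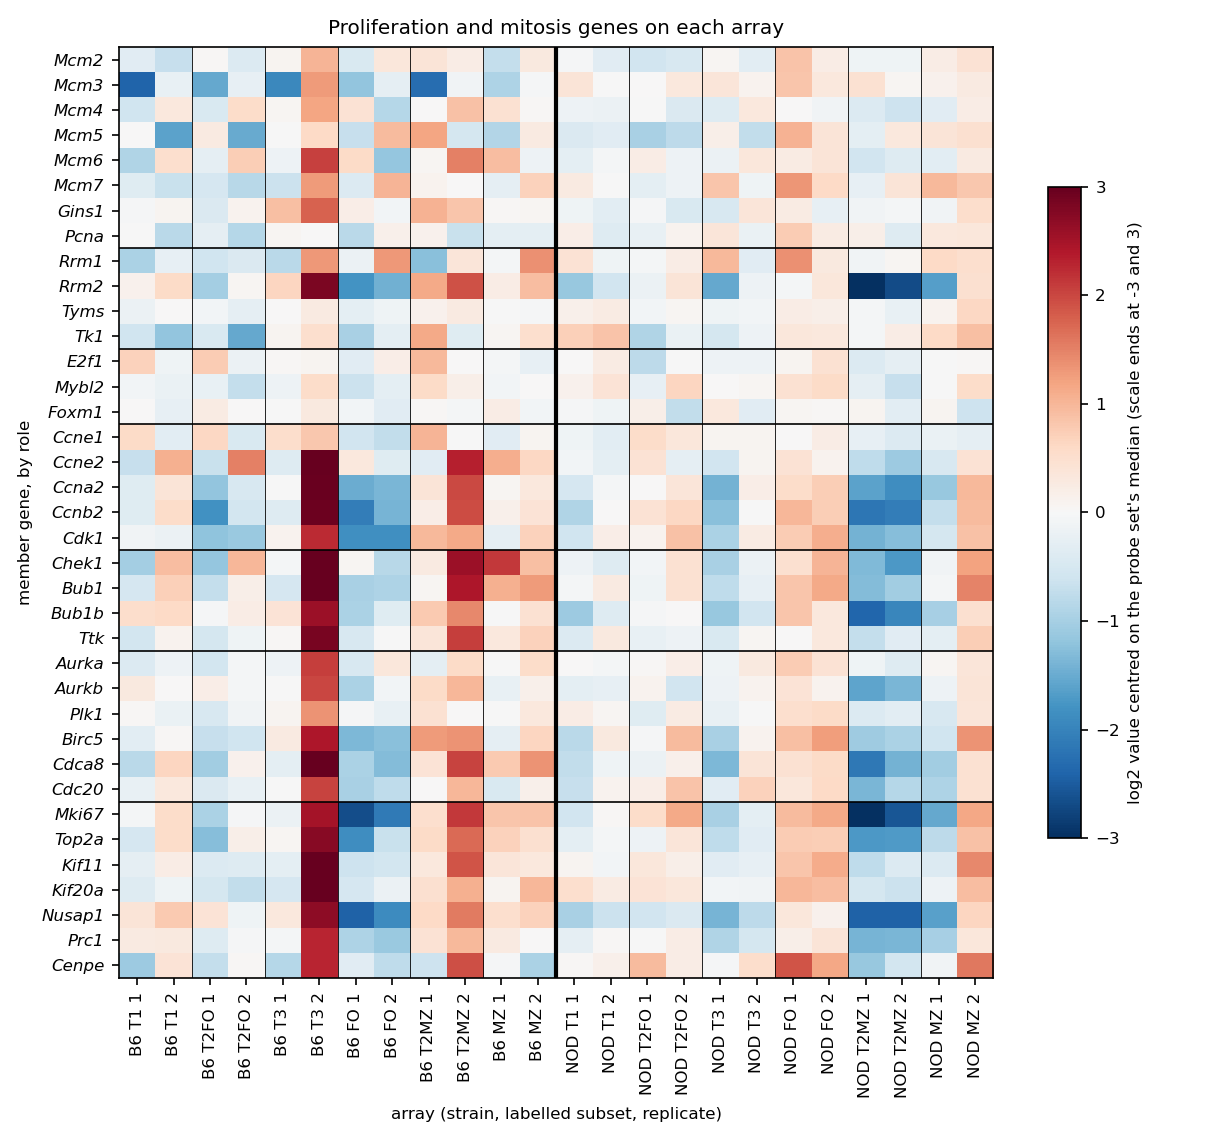
Centred log2 value of 37 member genes (rows, ordered by role) on each of the 24 arrays (columns, strain, labelled subset and replicate), with blue below and red above the probe set's own median and colours ending at -3 and 3. The column of B6 T3 replicate 2 is red in nearly every row of the lower part, and the NOD columns labelled T2MZ and the B6 FO columns are blue for most mitotic genes.

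The program was highest on replicate 2 of B6 T3, where the median over the 37 members was 2.07, and by group lowest in the NOD pair labelled T2MZ, with -0.72 and -0.62. Over all 87 member probe sets the medians were smaller, 1.27 on that B6 T3 array and -0.29 and -0.32 on the NOD pair, and the lowest array was replicate 1 of B6 FO with -0.40. The other B6 medians were -0.02 on replicate 1 of T3, -0.31 and 0.08 in T1, -0.49 and -0.14 in T2FO, -0.64 and -0.37 in FO, 0.39 and 1.00 in T2MZ and 0.03 and 0.33 in MZ. The NOD arrays read -0.13 and -0.06 under the label T1, -0.03 and 0.20 under T2FO, -0.34 and -0.09 under T3, 0.51 and 0.39 under FO and -0.20 and 0.51 under MZ. Thus FO was the lowest of the B6 pairs, while the arrays labelled FO were the highest NOD pair.

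The G2/M members moved over a wider range than the G1/S members. Their median was 2.53 on replicate 2 of B6 T3, 0.42 and 1.50 in B6 T2MZ, -0.95 and -0.75 in B6 FO, 0.76 and 0.67 on the NOD arrays labelled FO and -1.38 and -1.16 on those labelled T2MZ. On the same arrays the G1/S median was 1.19, 0.26 and 0.23, -0.40 and -0.26, 0.43 and 0.31, and -0.26 and -0.27. By group mean B6 FO was the lowest B6 group for 24 of the 37 members, beside 22.2% of all probe sets, and the NOD arrays labelled T2MZ were the lowest NOD group for 29, beside 13.8% of all. Those labelled FO were the highest NOD group for 30 members, beside 12.8% of all.

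**Figure D2:**
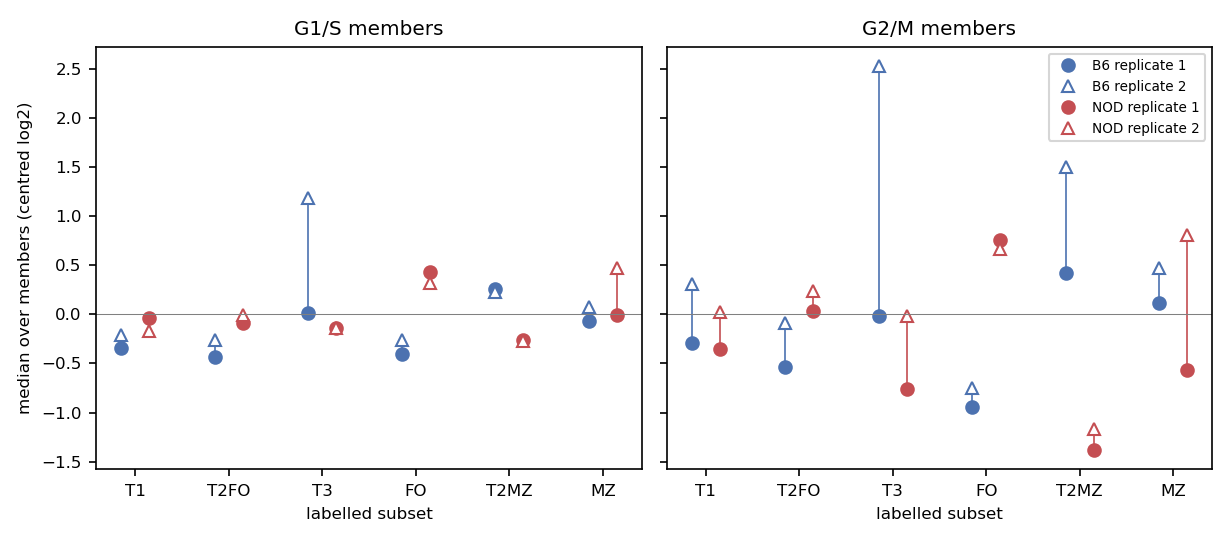
Median centred log2 value over the 17 G1/S members (left) and the 20 G2/M members (right) on each array, by labelled subset; circles are replicate 1, triangles replicate 2, blue B6 and red NOD, and lines join the 2 arrays of a group. The G2/M medians run from -1.38 on a NOD array labelled T2MZ to 2.53 on replicate 2 of B6 T3, and the G1/S medians from -0.44 to 1.19.

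Replicate 2 of B6 T3 stood apart from every other array. It held the highest of the 24 values for 27 of the 37 members, that is 19 of 20 G2/M members (all but Foxm1) and 8 of 17 G1/S members. A value above 1 was seen there for 29 members and above 2 for 21, and also for 27 of 32 other G2/M genes and 11 of 17 other G1/S genes (above 1), which are cell cycle genes outside the 38. On this array 36 of 37 members lay above replicate 1, with a median gap of 2.16, and 27 gaps exceeded 1, beside 10.2% of all probe sets. The 5′ actin control was -3.27 there and -1.02 on replicate 1. The germinal centre markers had a median of 0.70 there, and what part this or the actin signal has in the result was not tested.

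Without this array the order of the B6 groups changed. B6 T3 was the highest B6 group for 30 members with both arrays, beside 16.6% of all probe sets. With replicate 1 alone it was the highest for 2, beside 33.2% of all, where 1 array is set against means of 2. B6 T2MZ was then the highest for 29, beside 11.3% of all probe sets. B6 FO was the lowest for 22 of 37, beside 21% of all.

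Further apart than most were the replicates of NOD labelled MZ and of B6 T2MZ, with median absolute gaps of 0.913 and 0.964. In NOD labelled MZ replicate 2 lay above replicate 1 for 33 of 37 members, with a median gap of 0.91, and 18 gaps exceeded 1, beside 1.16% of all probe sets. In B6 T2MZ 17 gaps exceeded 1, beside 12.5% of all probe sets. There 26 members were higher on replicate 2, beside 46.4% of all. NOD labelled T2MZ was the closest pair, with a median absolute gap of 0.258.

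**Figure D3:**
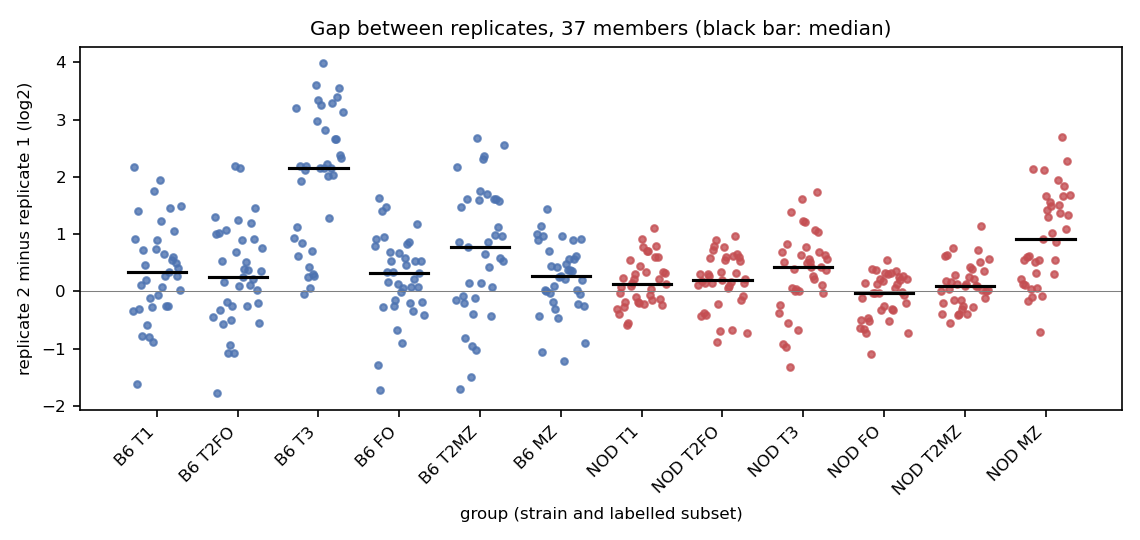
Replicate 2 minus replicate 1 (log2) for each of 37 members in each of the 12 groups, blue for B6 and red for NOD, with a black bar at the median. The median gap is 2.16 in B6 T3 and 0.91 in NOD labelled MZ, and lies between -0.02 and 0.78 in the other groups.

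The Mcm2 to Mcm7 proteins form the replicative helicase that is loaded on origins in G1, Gins1 belongs to the GINS complex that activates it, and Pcna encodes the sliding clamp of the replicative polymerases. The range of the 12 group means was 1.08 for Pcna and 1.88 for Mcm3, with the other 6 genes of this role between them. On the B6 arrays Mcm3 read -2.40 and -0.23 in T1, -1.54 and -0.24 in T2FO, -1.94 and 1.27 in T3, -1.18 and -0.26 in FO, -2.28 and -0.11 in T2MZ and -0.92 and -0.03 in MZ. Its NOD values were 0.39 and -0.0049 under T1, 0.0049 and 0.31 under T2FO, 0.35 and 0.11 under T3, 0.82 and 0.31 under FO, 0.45 and 0.06 under T2MZ and 0.13 and 0.26 under MZ. Every B6 array except replicate 2 of T3 lay below all 12 NOD arrays, and replicate 2 of B6 T3 was the highest array. The nearest was replicate 2 of B6 MZ with -0.03, beside -0.0049 on the lowest NOD array.

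For Mcm3 the choice of probe set matters: the other 4 probe sets correlated with this one with r between -0.43 and 0.50 over the 24 arrays. Mcm7 read -0.37 and -0.67 in T1, -0.51 and -0.84 in T2FO, -0.65 and 1.28 in T3, -0.40 and 1.01 in FO, 0.10 and 0.01 in T2MZ and -0.27 and 0.70 in MZ on the B6 arrays. It read 0.26 and -0.01 under T1, -0.29 and -0.14 under T2FO, 0.84 and -0.14 under T3, 1.32 and 0.60 under FO, -0.24 and 0.40 under T2MZ and 0.97 and 0.80 under MZ on the NOD arrays, where the array labelled FO with 1.32 was the highest of all 24. The most variable probe sets of Mcm4, Mcm6 and the spindle motor gene Cenpe split the B6 arrays in the same way as the 5′ actin control. These are 3 of 37 members, a share near the 6.35% of all probe sets higher on every array with the low control. Mcm4 was between 0.32 and 1.19 on the 6 B6 arrays with the low control and between -0.85 and 0.06 on the other 6. Mcm6 was between 0.50 and 2.05 on the former and between -1.16 and 0.06 on the latter, with no overlap. The other probe sets of these 3 genes did overlap, such as 1 of Mcm6 with -0.85 on replicate 2 of T1 and -0.67 on replicate 1. Mcm5 read -1.60 and -1.51 on replicate 2 of T1 and T2FO but 0.02 and 0.27 on replicate 1.

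Gins1 read -0.03 and 0.08 in T1, -0.44 and 0.10 in T2FO, 0.91 and 1.76 in T3, 0.19 and -0.08 in FO, 1.04 and 0.82 in T2MZ and 0.03 and 0.06 in MZ on the B6 arrays. It read -0.12 and -0.31 under T1, -0.04 and -0.45 under T2FO, -0.47 and 0.36 under T3, 0.24 and -0.24 under FO, -0.09 and -0.05 under T2MZ and -0.10 and 0.52 under MZ on the NOD arrays, so that both B6 T3 arrays and both B6 T2MZ arrays lay above all 12 NOD arrays. Mcm2 ranged over 1.09, Mcm4 over 1.14, Mcm5 over 1.59 and Mcm6 over 1.44 between the lowest and the highest group mean. Pcna was highest on an array labelled NOD FO (0.77) and lowest on replicate 2 of B6 T2FO (-0.85).

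Ribonucleotide reductase makes deoxyribonucleotides, with Rrm1 encoding its large and Rrm2 its small, cell cycle regulated subunit, while Tyms (thymidylate synthase) and Tk1 (thymidine kinase) supply thymidine nucleotides. Rrm2 had the widest range of all members, 4.81. On the B6 arrays it read 0.12 and 0.59 in T1, -1.02 and 0.05 in T2FO, 0.64 and 2.83 in T3, -1.79 and -1.45 in FO, 1.13 and 1.91 in T2MZ and 0.23 and 0.93 in MZ. In NOD it read -1.14 and -0.58 under T1, -0.18 and 0.39 under T2FO, -1.55 and -0.16 under T3, -0.05 and 0.34 under FO, -3.45 and -2.69 under T2MZ and -1.66 and 0.48 under MZ. The lowest values of all were the pair labelled T2MZ, and the B6 FO pair lay below every other B6 array.

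The other 2 probe sets of Rrm2 correlated with this one with r of 0.80 and 0.67. They also had their lowest NOD values on the arrays labelled T2MZ, -1.37 and -0.77, and -1.75 and -1.03. Tk1 read -0.59 and -1.18 in T1, -0.46 and -1.54 in T2FO, 0.08 and 0.50 in T3, -0.96 and -0.28 in FO, 1.15 and -0.35 in T2MZ and 0.05 and 0.50 in MZ on the B6 arrays. It read 0.71 and 0.85 under T1, -0.91 and -0.20 under T2FO, -0.53 and -0.15 under T3, 0.34 and 0.32 under FO, -0.05 and 0.23 under T2MZ and 0.60 and 0.91 under MZ on the NOD arrays, where the lowest was replicate 1 labelled T2FO. Rrm1 ranged over 1.43 between group means and was highest on an array labelled NOD FO (1.38) and on replicate 2 of B6 MZ (1.37). Tyms ranged over 0.57. The others of its 4 probe sets correlated with the most variable one with r between -0.03 and 0.10, so no pattern common to its probe sets can be read.

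E2f1 and Mybl2 encode transcription factors of the G1/S and S phases, and Foxm1 encodes one of the G2/M wave. The range of their 12 group means was 0.89 for E2f1, 1.00 for Mybl2 and 0.43 for Foxm1. E2f1 read 0.68 and -0.12 in T1, 0.76 and -0.18 in T2FO, 0.03 and 0.08 in T3, -0.33 and 0.20 in FO, 0.97 and 0.01 in T2MZ and -0.07 and -0.25 in MZ on the B6 arrays and 0.02 and 0.24 under T1, -0.80 and -0.01 under T2FO, -0.15 and -0.15 under T3, 0.08 and 0.45 under FO, -0.40 and -0.27 under T2MZ and -0.02 and 0.04 under MZ on the NOD arrays. In B6 replicate 1 lay above replicate 2 for T1, T2FO, T2MZ and MZ. Mybl2 read -0.09 and -0.21 in T1, -0.22 and -0.72 in T2FO, -0.15 and 0.55 in T3, -0.64 and -0.30 in FO, 0.57 and 0.17 in T2MZ and -0.08 and 0.01 in MZ on the B6 arrays. It read 0.12 and 0.42 under T1, -0.25 and 0.64 under T2FO, 0.02 and 0.06 under T3, 0.45 and 0.58 under FO, -0.27 and -0.69 under T2MZ and -0.01 and 0.54 under MZ on the NOD arrays, with the lowest pair under the label T2MZ.

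Cyclins activate the cyclin-dependent kinases, Ccne1 and Ccne2 at the entry into S phase, Ccna2 through S and G2 and Ccnb2, with Cdk1, at the entry into mitosis. Ccnb2 read -0.36 and 0.54 in T1, -1.81 and -0.56 in T2FO, -0.40 and 2.95 in T3, -2.06 and -1.40 in FO, 0.21 and 1.97 in T2MZ and 0.15 and 0.41 in MZ on the B6 arrays. The NOD arrays gave -0.90 and 0.01 under T1, 0.43 and 0.63 under T2FO, -1.24 and -0.01 under T3, 1.00 and 0.75 under FO, -2.18 and -2.08 under T2MZ and -0.71 and 0.96 under MZ. The arrays labelled NOD T2MZ and the B6 FO array of replicate 1 were the 3 lowest, and replicate 2 of B6 T3 and of B6 T2MZ the 2 highest.

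Ccna2 showed a like order. It read -0.35 and 0.38 in T1, -1.18 and -0.49 in T2FO, -0.02 and 2.96 in T3, -1.49 and -1.37 in FO, 0.39 and 1.99 in T2MZ and 0.07 and 0.31 in MZ on the B6 arrays and -0.50 and -0.07 under T1, 0.02 and 0.36 under T2FO, -1.43 and 0.19 under T3, 0.56 and 0.74 under FO, -1.61 and -1.86 under T2MZ and -1.14 and 0.97 under MZ on the NOD arrays. The lowest pairs were again B6 FO and NOD labelled T2MZ, which were close to each other.

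Cdk1, the kinase of mitotic entry, read -0.10 and -0.17 in T1, -1.21 and -1.11 in T2FO, 0.10 and 2.25 in T3, -1.83 and -1.85 in FO, 0.98 and 1.13 in T2MZ and -0.28 and 0.69 in MZ on the B6 arrays. Its NOD arrays read -0.59 and 0.19 under T1, 0.11 and 0.88 under T2FO, -0.95 and 0.25 under T3, 0.77 and 1.09 under FO, -1.41 and -1.27 under T2MZ and -0.54 and 0.89 under MZ. The replicates of B6 FO lay close together, and that pair was the lowest of all groups. Ccne2 ranged over 2.33 between group means and Ccne1 over 1.32, and in B6 Ccne2 differed by 1.55 between replicates (root mean square standard deviation), beside 0.407 in NOD.

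Chek1 encodes the kinase that answers to stalled replication, Bub1, Bub1b and Ttk the kinases and partners of the spindle assembly checkpoint. Bub1b read 0.53 and 0.60 in T1, -0.03 and 0.22 in T2FO, 0.40 and 2.56 in T3, -0.94 and -0.37 in FO, 0.79 and 1.44 in T2MZ and -0.02 and 0.46 in MZ on the B6 arrays. In NOD the values were -1.10 and -0.40 under T1, -0.03 and 0.02 under T2FO, -1.15 and -0.58 under T3, 0.84 and 0.32 under FO, -2.38 and -1.95 under T2MZ and -1.002 and 0.49 under MZ. The pair labelled T2MZ was the lowest, and both arrays of B6 T2MZ lay above every NOD array outside the label FO.

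Chek1 has 5 probe sets, which disagree. The one with the largest spread read -1.03 and 0.92 in T1, -1.15 and 1.00 in T2FO, -0.06 and 3.19 in T3, 0.06 and -0.84 in FO, 0.26 and 2.58 in T2MZ and 2.11 and 0.90 in MZ on the B6 arrays. Its NOD values were -0.16 and -0.39 under T1, -0.09 and 0.46 under T2FO, -0.96 and -0.19 under T3, 0.47 and 1.02 under FO, -1.32 and -1.71 under T2MZ and -0.11 and 1.20 under MZ, between -1.71 and 1.20. A pair of the others correlated with it with r of 0.92 and 0.91, and another pair with -0.15 and 0.13. Bub1 ranged over 2.67 and Ttk over 1.97 between group means, both highest in B6 T3 and lowest under the label NOD T2MZ.

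Plk1, Aurka and Aurkb are mitotic kinases; Birc5 (survivin) and Cdca8 (borealin) are partners of Aurkb in the chromosomal passenger complex, and Cdc20 activates the anaphase-promoting complex. Cdca8 read -0.82 and 0.63 in T1, -1.05 and 0.13 in T2FO, -0.28 and 3.01 in T3, -0.94 and -1.29 in FO, 0.41 and 2.02 in T2MZ and 0.78 and 1.36 in MZ on the B6 arrays. In NOD it read -0.74 and -0.13 under T1, -0.17 and 0.15 under T2FO, -1.35 and 0.39 under T3, 0.46 and 0.58 under FO, -2.14 and -1.42 under T2MZ and -1.03 and 0.47 under MZ, with the lowest pair under the label T2MZ. Birc5 read -0.31 and 0.02 in T1, -0.70 and -0.60 in T2FO, 0.26 and 2.42 in T3, -1.34 and -1.26 in FO, 1.27 and 1.34 in T2MZ and -0.27 and 0.63 in MZ on the B6 arrays and -0.80 and 0.30 under T1, -0.02 and 0.94 under T2FO, -0.98 and 0.10 under T3, 0.90 and 1.24 under FO, -1.06 and -0.96 under T2MZ and -0.59 and 1.35 under MZ on the NOD arrays. Its lowest group was B6 FO, where both arrays were below every other array.

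Aurkb read 0.28 and 0.02 in T1, 0.19 and -0.06 in T2FO, -0.02 and 1.99 in T3, -0.95 and -0.09 in FO, 0.58 and 1.00 in T2MZ and -0.22 and 0.14 in MZ on the B6 arrays. The NOD arrays gave -0.28 and -0.25 under T1, 0.10 and -0.58 under T2FO, -0.15 and 0.12 under T3, 0.42 and 0.09 under FO, -1.59 and -1.37 under T2MZ and -0.15 and 0.39 under MZ. The pair labelled T2MZ lay below all other arrays, and the second probe set, which correlated with r of 0.95, placed the same pair lowest with -1.08 and -0.81. Cdc20 ranged over 2.12, Aurka over 1.26 and Plk1 over 1.07 between group means, each highest in B6 T3.

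Mki67, the proliferation antigen that coats mitotic chromosomes, Top2a, which untangles DNA, the motors Kif11, Kif20a and Cenpe and the spindle proteins Nusap1 and Prc1 form the group of chromosome and spindle genes. Mki67 read -0.05 and 0.54 in T1, -0.95 and -0.03 in T2FO, -0.16 and 2.49 in T3, -2.65 and -2.12 in FO, 0.51 and 2.13 in T2MZ and 0.83 and 0.85 in MZ on the B6 arrays. Its NOD arrays read -0.58 and 0.03 under T1, 0.54 and 1.15 under T2FO, -0.97 and -0.29 under T3, 0.95 and 1.15 under FO, -3.70 and -2.56 under T2MZ and -1.53 and 1.17 under MZ. In B6 the FO pair was lowest and in NOD the pair labelled T2MZ, and the pair labelled NOD MZ was 2.70 apart.

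Nusap1 read 0.38 and 0.78 in T1, 0.41 and -0.14 in T2FO, 0.31 and 2.68 in T3, -2.41 and -1.88 in FO, 0.60 and 1.57 in T2MZ and 0.50 and 0.70 in MZ on the B6 arrays. In NOD the values were -0.97 and -0.64 under T1, -0.57 and -0.42 under T2FO, -1.41 and -0.78 under T3, 0.34 and 0.14 under FO, -2.44 and -2.44 under T2MZ and -1.63 and 0.65 under MZ. Every B6 array outside FO lay above every NOD array labelled T1, T3 or T2MZ. Top2a ranged over 3.11, Prc1 over 2.48, Cenpe over 2.37, Kif11 over 1.99 and Kif20a over 1.89 between group means. Of these, Cenpe was highest under the label NOD FO and the other 4 in B6 T3.

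**Figure D4:**
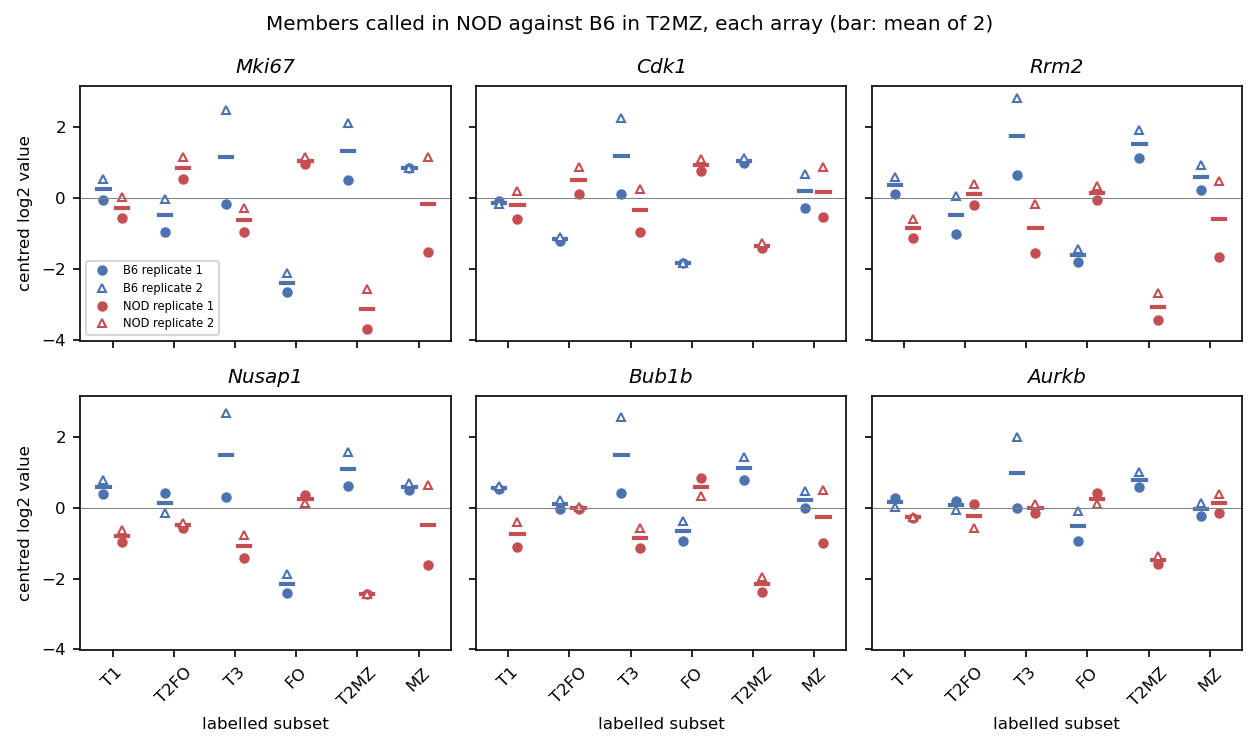
Centred log2 values of Mki67, Cdk1, Rrm2, Nusap1, Bub1b and Aurkb on each array by labelled subset; blue is B6, red NOD, circles replicate 1, triangles replicate 2 and bars the mean of 2 arrays. Under the label T2MZ both NOD arrays lie below both B6 arrays in all 6 panels, for Mki67 at -3.70 and -2.56 against 0.51 and 2.13, and under the label FO the NOD arrays of each panel lie above the B6 arrays.

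Over the 24 arrays the members nearest to Mki67 by Pearson correlation were Ccnb2 (r = 0.94), Rrm2 (0.93), Top2a (0.93), Ccna2 (0.92) and Prc1 (0.91), given as a description of arrays that share pools and processing. With replicate 2 of B6 T3 left out these were 0.94, 0.93, 0.94, 0.93 and 0.94. The G1/S members Mcm5 (-0.03), Pcna (0.03), Mcm3 (0.14), Mcm7 (0.15) and Rrm1 (0.15) and the G2/M member Foxm1 (-0.01) lay near 0. The median r over the 666 pairs of members was 0.56.

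The strains were compared first over all subsets, on the means of the 4 pools. No member passed an adjusted p of 0.05, beside 3.02% of all probe sets tested. At an unadjusted p under 0.05 limma counted 12 of the 87 member probe sets, 13.8%, beside 19% of all. The nearest by p were a pair of Mcm3 probe sets with opposite signs, 0.56 ± 0.10 (SE, adjusted p = 0.0691) and -0.51 ± 0.10 (0.0784). Then came Gins1 with a NOD minus B6 difference of -0.43 ± 0.11 (SE, adjusted p = 0.127), Nusap1 with -1.14 ± 0.29 (0.138) and Bub1b with -1.05 ± 0.29 (0.158). The median difference of the member probe sets was -0.12, and that of all probe sets -0.03. With the numbers of B6 FO and MZ exchanged between the pools there was again no member, and the share of all probe sets called was 0.131%. Without replicate 2 of B6 T3, 1 member was called, and without a whole B6 replicate number 5 (without replicate 1) or 2 (without replicate 2). Among the other cycle genes, with the pool numbers as given, Gmnn (geminin, the inhibitor of origin licensing) fell by 2.01 (adjusted p = 0.024) in NOD. Pttg1 (securin) fell by 1.43 (0.0228), and Smc2, a condensin subunit, rose by 2.21 (0.0427). The calls of Pttg1 here and below are on 1 probe set, which is not its most variable.

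**Figure D5:**
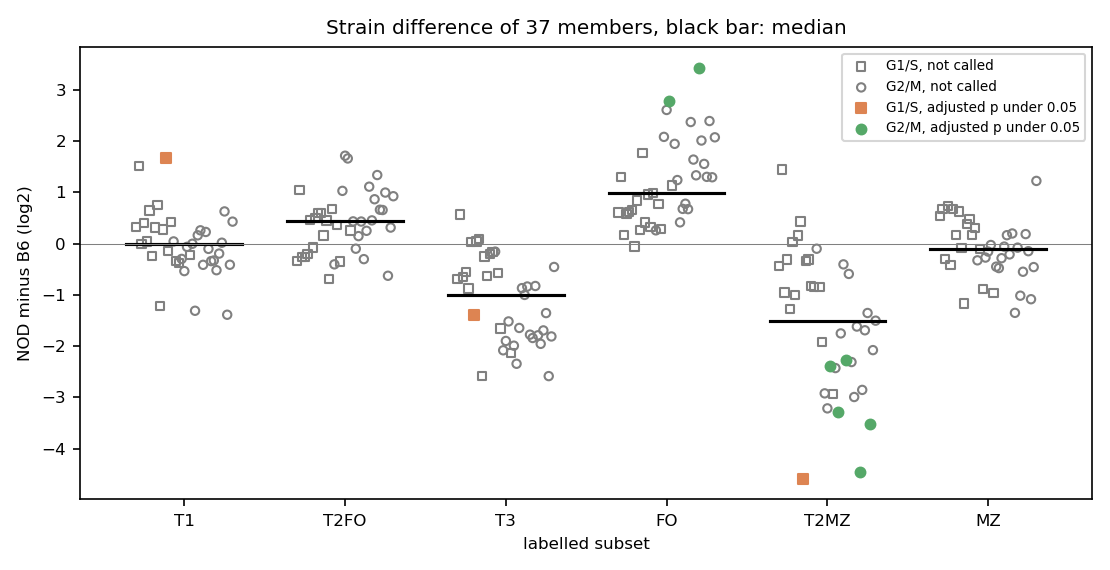
NOD minus B6 difference (log2) of each of 37 members in each labelled subset; squares are G1/S and circles G2/M members, filled where limma's adjusted p is under 0.05, with a black bar at the median over the 37. Filled points lie below 0 in T2MZ (Rrm2, Bub1b, Mki67, Nusap1, Aurkb and Cdk1) and above 0 in FO (Cdk1 and Mki67), and each of T1 and T3 has 1.

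Under the label T2MZ most members were lower in NOD. Both NOD arrays lay below both B6 arrays for 28 of the 37 genes on their most variable probe set. The share among all probe sets, which were not chosen by spread, was 21.7%. Called were 9 of the 87 probe sets, of 8 genes, all of them lower in NOD, beside 2.73% of all probe sets called in either direction and 1.02% called lower. The median difference was -0.70 over the member probe sets and -0.02 over all, and -1.62 over the G2/M and -0.33 over the G1/S probe sets. At an unadjusted p under 0.05 there were 39 of 87, beside 12.8% of all.

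Rrm2 had the largest fall on 1 of its 3 probe sets, -4.58 ± 0.73 (SE) with an adjusted p of 0.00271 by limma. The B6 arrays read 1.13 and 1.91 on it and the NOD arrays -3.45 and -2.69. The other 2 probe sets of Rrm2 fell less and were not called. They went from 0.87 and 0.43 to -1.37 and -0.77, and from 1.00 and 0.36 to -1.75 and -1.03. The G2/M members that fell were Mki67 with -4.45 ± 0.85 (adjusted p = 0.0101), Nusap1 with -3.52 ± 0.68 (0.0103), Bub1b with -3.28 ± 0.57 (0.00518), Cdk1 with -2.39 ± 0.60 (0.0488) and Aurkb with -2.27 ± 0.47 (0.0166), the last on its second probe set too (-1.82 ± 0.46, 0.0463). On the most variable probe set of each of these 6 genes the NOD and B6 arrays did not overlap. The arrays overlapped on the other probe set of Nusap1 (-0.16 and -0.09 in NOD, 0.59 and -0.21 in B6). They also overlapped on 1 of the 3 probe sets of Bub1b. On 1 of its 5 probe sets Chek1 fell by 1.54 ± 0.39 (adjusted p = 0.048), from 0.59 and 1.48 to -0.54 and -0.48. Mcm3 fell by 0.84 ± 0.19 (0.0312) on a probe set that read 0.78 and 0.48 in B6 and -0.06 and -0.36 in NOD, while its most variable probe set had a difference of 1.44 ± 0.91 the other way (0.597).

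Members just short of the call in T2MZ were Prc1 (-2.08 ± 0.53, adjusted p = 0.0536), Top2a (-2.86 ± 0.75, 0.0611), Mcm5 on 1 of its 3 probe sets (-1.10 ± 0.30, 0.0697) and Ccnb2 (-3.22 ± 0.88, 0.0736). The transcription factors E2f1, Mybl2 and Foxm1 and the G1/S genes Pcna, Rrm1, Mcm5 and Mcm7 were not called, the last 4 with differences of 0.16, 0.43, -0.31 and 0.02. Of the other cycle genes, 2 of 34 G1/S probe sets fell, and of 74 G2/M probe sets 6 fell and 1 rose. They include Gmnn with -4.10 ± 0.42 (adjusted p = 7.78e-05), Cks1b, a Cdk partner, with -2.75 ± 0.48 (0.00525), Uhrf1, which maintains DNA methylation at replication, with -2.77 ± 0.53 (0.0102) and Stmn1, a microtubule destabiliser, with -2.49 ± 0.46 (0.00814), all of which fell.

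The calls in T2MZ depend on single arrays. With all 24 arrays there were 8 member genes, without B6 replicate 1 there were 5, without B6 replicate 2 there was 1, without NOD replicate 1 there was 1 and without NOD replicate 2 there were 3. Without replicate 2 of B6 T3, 17 were called, beside 3.11% of all probe sets. Rrm2 kept an adjusted p under 0.05 without each of the 4 arrays. With the 4 arrays of the comparison alone no member was called. The arrays labelled NOD T2MZ carried lower Cd93 (-1.40 and -1.62, with 0.46 and 1.14 in B6 T2MZ) and higher Fcer2a (1.51 and 1.77, with -0.20 and 0.20), and the part of this difference in markers in the results was not tested.

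Under the label FO the order was turned, with most members higher in NOD. Both NOD arrays lay above both B6 arrays for 28 of the 37 genes on their most variable probe set. The share among all probe sets, which were not chosen by spread, was 21.5%. Called were 4 of 87 probe sets, 3 higher and 1 lower, beside 2.88% of all called and 1.48% called higher. Cdk1 rose by 2.77 ± 0.60 (adjusted p = 0.0219 by limma), from -1.83 and -1.85 on the B6 arrays to 0.77 and 1.09 on those labelled NOD FO. Mki67 rose by 3.43 ± 0.85 (0.0443), from -2.65 and -2.12 to 0.95 and 1.15. Cdc20 rose by 1.07 ± 0.24 (0.0239) on 1 of its 3 probe sets, from -0.72 and -0.41 to 0.40 and 0.61. These 3 genes did not overlap between the strains.

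The probe set of Chek1 that was lower in NOD FO fell by 0.58 ± 0.14 (adjusted p = 0.0436), and it is not one of the 3 probe sets of Chek1 that follow each other. At an unadjusted p under 0.05 there were 36 of 87 member probe sets, beside 13.8% of all. The median difference was 0.65 over the members, 1.24 over the G2/M and 0.45 over the G1/S probe sets, and -0.01 over all. Close to the call were Rrm2 on its other 2 probe sets (2.00 ± 0.53 with an adjusted p of 0.0596 and 2.62 ± 0.73 with 0.0737) and Ccna2 on 1 of 2 (2.33 ± 0.64, 0.0701). Birc5 (2.37 ± 0.67, adjusted p = 0.0788), Nusap1 (2.39 ± 0.68, 0.0798) and Ccnb2 (2.60 ± 0.88, 0.156) had large differences that were not called. Of the other cycle genes, Ube2c, the ubiquitin-conjugating enzyme of the anaphase-promoting complex, rose by 2.43 ± 0.58 (0.0369), Gins2 by 0.84 ± 0.20 (0.0334) and Smc2 by 1.94 ± 0.47 (0.0376), and Pttg1 fell by 1.36 ± 0.22 (0.00357).

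With all arrays 4 member genes were called in FO, and 12 without replicate 2 of B6 T3, beside 3.07% of all probe sets. Without B6 FO replicate 1 there was 1, and there was none without B6 FO replicate 2, without NOD FO replicate 1 or without NOD FO replicate 2. The germinal centre markers S1pr2, Rgs13 and Mybl1 and the myeloid markers C1qa, Csf1r, Cd68 and Adgre1 were above 1 on both arrays labelled NOD FO. The members were high there too. On the B6 FO arrays the germinal centre medians were -0.22 and 0.13. What part cells with these markers have in the difference was not tested.

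Under the label T3 a single member was called, and the call depends on single arrays. In NOD Gins1 fell by 1.39 ± 0.31 (adjusted p = 0.0377), from 0.91 and 1.76 in B6 to -0.47 and 0.36. It was the only call among the 87 member probe sets, beside 1.72% of all, while 29 had an unadjusted p under 0.05, beside 10.3% of all. The median difference was -0.60 over the members and -0.04 over all probe sets. Bub1b (-2.35 ± 0.57, adjusted p = 0.0536) and Nusap1 (-2.59 ± 0.68, 0.0767) were next. Without replicate 2 of B6 T3 no member was called, nor without NOD T3 replicate 1, and without replicate 1 of B6 T3 there were 21, beside 1.29% of all probe sets. Of the other cycle genes Gmnn fell by 2.91 ± 0.42 (0.00204), Stmn1 fell by 2.25 ± 0.46 (0.0223) and Lig1, a DNA ligase, fell by 1.51 ± 0.33 (0.034), and Smc2 rose by 2.32 ± 0.47 (0.0199).

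Under the label T1 a single member was called. Tk1 rose in NOD by 1.67 ± 0.44 (adjusted p = 0.0352), from -0.59 and -1.18 to 0.71 and 0.85, with no overlap. That is 1 of 87 probe sets beside 6.31% of all, and 5 had an unadjusted p under 0.05, beside 17.6% of all. The call of Tk1 was lost without any 1 of the 4 arrays of the comparison. The members' median difference of -0.08 was close to that of all probe sets, -0.05. Among the other cycle genes, Pttg1 fell by 1.69 ± 0.22 (adjusted p = 0.000242), Cenpa, the centromeric histone, fell by 1.83 ± 0.33 (0.00292), Cdc25b, a phosphatase that activates Cdk1, fell by 2.75 ± 0.78 (0.0498), and Smc2 rose by 2.37 ± 0.47 (0.00575).

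Under the labels T2FO and MZ no member was called. In T2FO 2.58% of all probe sets were called, and limma counted 7 of 87 member probe sets at an unadjusted p under 0.05, beside 13% of all. The median was 0.18, and the differences nearest to the call were those of Cdk1 (1.66 ± 0.60, adjusted p = 0.213), Rrm2 on 1 of its 3 probe sets (1.45 ± 0.53, 0.218) and Mybl2 (0.67 ± 0.30, 0.359). In MZ 2.52% of all were called, and limma counted 1 of 87 at an unadjusted p under 0.05, beside 12.9% of all, with a median of -0.09. In NOD Pttg1 fell by 1.05 ± 0.22 (adjusted p = 0.0196) in T2FO, and in MZ it fell by 1.72 ± 0.22 (0.000589), where Gmnn fell by 2.42 ± 0.42 (0.00535). Smc2 rose by 2.08 ± 0.47 (0.028) and 2.38 ± 0.47 (0.0128).

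Whether the strain difference changed with the label was tested by the interaction of strain and subset. Called were 4 of 87 member probe sets, beside 1.35% of all, and 31 had an unadjusted p under 0.05, beside 8.11% of all. The genes were Cdk1 (adjusted p = 0.0266), Mki67 (0.0272), Rrm2 on 1 of its 3 probe sets (0.0315) and Nusap1 on 1 of 2 (0.0384). Their NOD minus B6 differences ran from T1 through T2FO, T3, FO and T2MZ to MZ as follows. Cdk1 had -0.07, 1.66, -1.52, 2.77, -2.39 and -0.03. Mki67 had -0.52, 1.34, -1.79, 3.43, -4.45 and -1.02. Rrm2 had -1.21, 0.59, -2.59, 1.76, -4.58 and -1.17. Each was positive under FO and negative under T3 and T2MZ, and so was Nusap1, with -1.39, -0.63, -2.59, 2.39, -3.52 and -1.09. The interaction reads the labels as given, so it includes any difference in the cells behind a label.

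These 4 calls rest on few arrays. Without replicate 2 of B6 T3, 10 member genes were called, beside 1.44% of all probe sets, and without replicate 1 of B6 T3, 18, beside 1.74%. There were 2 without B6 T2FO replicate 1, 1 without B6 T2MZ replicate 1 or NOD T2MZ replicate 2, and none without either array of B6 T1, B6 FO, NOD T1 or NOD FO, without B6 T2MZ replicate 2, NOD T2FO replicate 2 or NOD T2MZ replicate 1.

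Within the strains no member passed the test over the 6 subsets. With the replicate number as a block, 8 members were called among the B6 and 3 among the NOD subsets, beside 3.38% and 2.54% of all probe sets. In B6 1.41% of all probe sets were called, and limma counted 25 of 87 member probe sets at an unadjusted p under 0.05, beside 9.07% of all. Cdk1 (adjusted p = 0.059), Gins1 (0.0674) and Nusap1 (0.0766) came nearest. With replicate 2 of B6 T3 left out 2 member genes were called, beside 1.43% of all, and without replicate 1 of B6 T3 there were 19, beside 1.76%. In NOD 1.77% of all were called, and limma counted 14 of 87 at an unadjusted p under 0.05, beside 7.6% of all, with Mki67 nearest (0.11). There were 4 without replicate 2 of B6 T3, and 1 without NOD T2FO replicate 1 or without either array of NOD MZ.

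The transitional and marginal zone ends were set against FO in each strain, and in none of these 4 comparisons was a member called without a block. T1 against FO in B6 had 1.01% of all probe sets called and 12 of 87 members at an unadjusted p under 0.05 by limma, beside 10.2% of all, with Nusap1 2.73 ± 0.68 higher in T1 (adjusted p = 0.0807). MZ against FO in B6 had 0.564% of all called and 12 members, beside 6.04% of all, with Nusap1 2.74 ± 0.68 (0.115) and Mki67 3.23 ± 0.85 (0.166). In each, 1 member was called without replicate 2 of B6 T3. With the replicate number as a block there were 4 in T1 against FO, beside 2.61% of all, and 2 in MZ against FO, beside 0.921%.

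In NOD most of these differences were negative. T1 against FO had 1.14% of all called and 4 of 87 members at an unadjusted p under 0.05 by limma, beside 7.33% of all, and 12 of 87 differences were positive, against 61 of 87 in B6. MZ against FO had 0.122% of all called and no member at an unadjusted p under 0.05, beside 2.39% of all, and 20 of 87 differences were positive, against 73 of 87 in B6. The 2 comparisons of a strain share its FO arrays. Mki67 had -1.32 ± 0.85 and -1.22 ± 0.85 in NOD, with 2.63 ± 0.85 and 3.23 ± 0.85 in B6.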

How the data were processed

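The authors deposited RMA values on a log2 scale. The method is named in the submitters' processing notes, but its version and the logarithm's base, taken as 2, are not given in the sources used here. RNA was amplified in a pair of cycles primed from the poly(A) tail, per the labels' protocols, which favours 3′ sequence. Each probe set was found centred on its own median (largest median 5e-07), so no filter on dim probe sets was possible. Array medians lay between -0.04 and 0.06, and the highest correlation between arrays was 0.89.

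Of 45101 probe sets, 64 controls were left out, and 45037 were tested in R 4.3.3 with limma 3.58.1. A model with a mean for each of the 12 groups took all 24 arrays, which share 1 estimate of the spread; NOD against B6 over subsets was fitted on the 4 pool means. Benjamini-Hochberg adjusted p under 0.05, over all probe sets, counted as called. The interaction and the comparison of 6 subsets are F tests. The p-values rest on 2 arrays a group, whose pools are separate, while arrays of 1 pool share mice. The within-pool correlation was 0.112 with the replicate numbers read as pools as given. In B6 it takes together pairs of groups whose deviations had r from -0.62 to 0.87. Its low value therefore does not show that the arrays are independent. The script was tested on simulated data.

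The members and the lists were chosen with earlier results of these data known. All members are named; every array is given for the 2 members of each role with the largest range of group means, for up to 12 called members and for Mki67, and up to 4 other cycle genes are named per comparison. Errors beside differences are standard errors. Probe sets were named by the platform's annotation: 34945 had 1 gene, 932 several and 9160 none, and 34741 of those with 1 gene matched the NCBI gene table by gene number. Some genes of the lists are not analysed here. Promoters are RefSeq's for GRCm38.p6; 7 members without an entry are Mcm4, Gins1, Foxm1, Ccne2, Ccna2, Aurkb and Kif20a. The lists of B cell, erythroid, pro-B and pre-B, T cell, granulocyte precursor and dendritic markers had no group with more than 1 gene above 1 on both arrays. Same-numbered arrays deviated together (r over 0.1) in 7 of 15 pairs of B6 groups and 12 of 15 of NOD groups. Among B6 T1, T2FO, T3 and T2MZ r was 0.73 to 0.87 and between FO and MZ 0.71, but between these sets -0.62 to -0.37. The numbers of B6 FO and MZ may be crossed, but the low 5′ actin control divides the B6 arrays in the same way. A crossing and a difference that goes with this control cannot be told apart here. The pool means read a number as a pool; in the other fits the number, as given or crossed, enters only as an alternative, since not every pair passed. Python 3.11.15 with matplotlib 3.10.9 drew the figures.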

Additional observations from a re-analysis of the deposited data

Results flagged for a closer look

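The strain difference of 4 members differed between the labelled subsets by limma's interaction test, with adjusted p of 0.0315 for Rrm2, 0.0266 for Cdk1, 0.0272 for Mki67 and 0.0384 for Nusap1. Under the label FO their NOD minus B6 differences were 1.76, 2.77, 3.43 and 2.39, and under T2MZ -4.58, -2.39, -4.45 and -3.52. The difference in the sort marker transcripts behind the labels and this result cannot be told apart. No group has 4 or more arrays, so single arrays were not tested as outliers.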

How the results depend on the processing

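Counts here are member genes called. Leaving out 1 array, or 1 replicate number for the comparison over subsets, gave 0 to 5 over subsets, 0 to 1 in T1, 0 to 1 in T2FO, 0 to 21 in T3, 0 to 12 in FO, 1 to 17 in T2MZ, 0 to 0 in MZ, 0 to 19 among the B6 and 0 to 4 among the NOD subsets, 0 to 18 in the interaction, 0 to 1 in T1 against FO and in MZ against FO in B6, and 0 to 0 in both NOD comparisons. Where a group was left with 1 array, that array was assumed to vary like the others.

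With a replicate block the counts were 5 in T3, 9 in FO, 16 in T2MZ, 8 among the B6 and 3 among the NOD subsets, 11 in the interaction, 4 in T1 against FO and 2 in MZ against FO in B6; the other counts with the replicate block stayed within 1.5 times. With the numbers of B6 FO and MZ crossed, an alternative chosen after seeing the data, they were 14 among the B6 subsets, 16 in the interaction, 4 in T1 against FO and 5 in MZ against FO in B6. A random block on the pool, also added, gave 2 in T3, 4 among the B6 and 2 among the NOD subsets, 7 in the interaction and 1 in T1 against FO in B6.

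With the 5′ minus 3′ actin control as covariate there were 4 in T1, 1 in T2FO, 4 in T3, 12 in FO, 9 among the B6 and 1 among the NOD subsets, 10 in the interaction and 1 in T1 against FO in B6. Quantile normalization gave 0 in T1, 2 in T3 and 7 in FO. Array weights gave 0 in T3, 7 in FO and 4 among the NOD subsets. With only the arrays compared there were 0 in T1, T3, FO and T2MZ, 4 among the NOD subsets and 2 in T1 against FO in NOD. Averaging the probe sets of each gene gave 2 in T3, 5 in T2MZ, 1 among the B6 subsets and 1 in T1 against FO in B6. Taking the 24 arrays as independent over subsets gave 7. The cause of these changes was not tested. The mean of the member medians moved from -0.093 to -0.029 in NOD T1, from 0.45 to 0.69 in NOD FO and from -0.67 to -0.40 in NOD T2MZ without probe sets ending in _x_at or _s_at, and to -0.42 in NOD T2MZ with gene means. Within the spread of the replicates it also moved by over 1.5 times from 0.70 to 0.44 in B6 T2MZ, from -0.115 to -0.208 in B6 T1 and from 0.154 to 0.249 in NOD MZ without those probe sets, and with gene means to -0.046 in B6 T1, from -0.314 to -0.200 in B6 T2FO, from -0.216 to -0.128 in NOD T3 and to 0.087 in NOD MZ. Of 257 alternative values of single called members, 155 passed, 102 did not and 0 reversed.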
